A study of Homo sapiens with 6 samples.

Results

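The genes described here make, recycle and use glutathione in the luminal breast cancer cell line T47D, an established human line. They were taken by symbol from the 58735 rows of the gene count table, where each of 10 symbols (GCLC, GCLM, GSS, GSR, GPX1, GPX2, GPX3, GPX4, GPX7 and GPX8) matched 1 row. Total RNA was sequenced from 3 exposed libraries, titled CQ, and 3 control libraries, titled CK. The design text calls the CQ group an experimental treatment. The series title and an extraction protocol that names fine airborne particulate matter (PM2.5) for every sample, 48 h into exposure, are the grounds for reading that treatment as PM2.5. The dose and what the control cells received were not given in the sources used here. All 6 libraries come from this line, and the labels give no genetic change in either group. Replicates are named biological in the design text, with no word on separate cultures, so the p-values measure the spread between these libraries.

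Glutathione is a small sulfur-containing peptide and the most abundant thiol of most animal cells. Glutamate-cysteine ligase joins glutamate to cysteine, the step that limits the rate, and glutathione synthetase (GSS) then adds glycine. The ligase has a catalytic subunit, GCLC, and a modifier subunit, GCLM, which makes the enzyme more efficient. Glutathione peroxidases (GPX) reduce hydrogen peroxide and lipid peroxides with glutathione, which is oxidized in the process, and glutathione reductase (GSR) returns it to the reduced form with NADPH. The transcription factor NRF2 is a known inducer of several of these genes through antioxidant response elements.

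The peroxidases fall into classes by the residue that meets the peroxide. GPX1, GPX2, GPX3 and GPX4 carry selenocysteine there, written in their messages as a TGA codon that is read through, whereas GPX7 and GPX8 carry an ordinary cysteine. The coding sequences below, 27 bases each from GENCODE 29 transcripts, are shown because they set these classes apart, and the capitals mark the codon of that residue.
GPX1: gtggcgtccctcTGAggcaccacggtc
GPX2: gtggcttcgctcTGAggcacaaccacc
GPX3: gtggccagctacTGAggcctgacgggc
GPX4: gtggcctcccagTGAggcaagaccgaa
GPX7: gtggccagcgagTGCggcttcacagac
GPX8: gtggccagtgacTGCcaactcacagac
The selenocysteine codons are annotated at chr3:49358132-49358134 in GPX1, chr14:64942607-64942609 in GPX2, chr5:151025469-151025471 in GPX3 and chr19:1105403-1105405 in GPX4 (GRCh38; minus strand for GPX1 and GPX2, plus strand for GPX3 and GPX4). The cysteine codon TGC, found by aligning each translation with that of GPX4, lies at chr1:52606714-52606716 in GPX7 and chr5:55161024-55161026 in GPX8, both on the plus strand. All 6 stretches begin with the same codons for valine and alanine but for the last base of the second.

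Of the 10 genes, 6 were higher in exposed cells: GCLC, GCLM, GSR, GPX2, GPX3 and GPX4. GSS and GPX8 did not pass the test, and GPX1 and GPX7 had too few reads to be tested. None was lower. The changes spanned a wide range, with GPX2 at 13.0-fold and GCLM at 5.47-fold against 1.35-fold to 1.76-fold for the other 4 genes that rose. Levels are given in CPM, read counts scaled to a common library size with TMM factors. Genes were called where edgeR's quasi-likelihood test gave a Benjamini-Hochberg adjusted p under 0.05 over the 17337 tested genes, whatever the fold. By that rule 43.9% of all tested genes changed, 21.8% higher and 22.1% lower. The median log2 fold change of the 8 tested members was 0.60, against -0.02 over all tested genes. GPX2 passed the low-count filter only through the exposed libraries, where it was high. It is part of the 6 genes, of this median and of the overlap below, so these are given as a description only. The values of the 6 genes did not overlap between the groups, a pattern shown in that direction by 25.5% of all tested genes and in either direction by 51.9%.

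**Figure D1:**
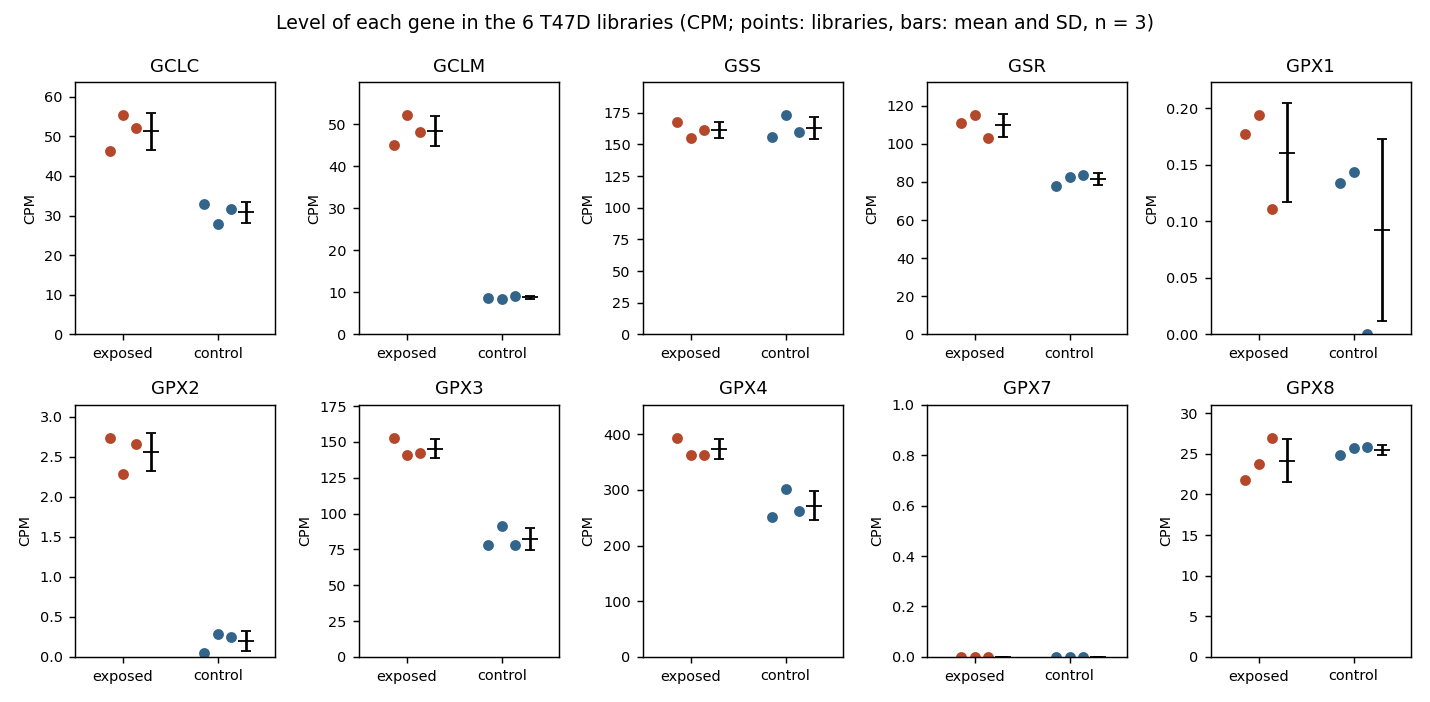
Level of each of the 10 genes in CPM (vertical axes, each from 0) in the 3 exposed and 3 control libraries; points are libraries and bars the mean and SD. The exposed points lie above every control point for GCLC, GCLM, GSR, GPX2, GPX3 and GPX4, overlap for GSS, GPX8 and GPX1, and are at 0 in both groups for GPX7.

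Total counts ran from 30970218 to 36878525 in exposed libraries and from 34696540 to 36024874 in control libraries. Mitochondrial transcripts took 8.97% to 9.71% of them in exposed and 8.98% to 9.65% in control libraries. Genes with a read numbered 23949 to 24402 in exposed and 24597 to 25059 in control libraries, without overlap. The part of this difference in the results was not tested. The 9 luminal markers were all detected, but their summed level was 8122 to 10136 CPM in exposed and 19209 to 21079 CPM in control libraries, with 6 lower (KRT8, KRT18, KRT19, ESR1, PGR and FOXA1) and 3 not passing (EPCAM, CDH1 and GATA3). Leukocyte markers (PTPRC, CD3E and CD68) summed to 0.222 to 0.291 CPM in exposed and 0.0549 to 0.188 CPM in control libraries. The endothelial sums (PECAM1, VWF and CDH5) were 0 to 0.236 CPM in exposed and 0.241 to 0.412 CPM in control libraries. The basal epithelial sums (KRT5, KRT14 and TP63) were 0.25 to 0.677 CPM in exposed and 0.23 to 0.429 CPM in control libraries. The 4 fibroblast genes (COL1A1, COL1A2, DCN and PDGFRB) summed to 69.7 to 72.3 CPM in exposed and 58.8 to 66.9 CPM in control libraries and came nearly all from COL1A1, with COL1A2 the 1 gene of the 4 that was higher. None of the markers was at 0 in all libraries. The part of these marker shifts in the results was not tested, and in bulk RNA fewer cells of a type and less RNA per cell cannot be told apart.

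GCLM, the modifier subunit of the ligase (chr1:93885205-93909456, minus strand), changed most among the synthesis genes. It had 45.0, 52.1 and 48.0 CPM in exposed libraries, from 1528, 1612 and 1731 reads, against 8.71, 8.52 and 9.25 CPM in control libraries, from 325, 296 and 337 reads. Every exposed library was far above the highest control library, and the 3 control libraries lay close together. The log2 fold change was 2.45 ± 0.10 (SE), or 5.47-fold with a 95% interval of 4.75 to 6.32 (edgeR quasi-likelihood adjusted p = 7.5e-19). It ranked 53 of 17337 tested genes by log2 fold change.

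GCLC, the catalytic subunit (chr6:53497341-53616970, minus strand), rose by less. It had 46.3, 55.3 and 52.0 CPM in exposed and 32.8, 27.9 and 31.7 CPM in control libraries. The groups did not overlap, although exposed replicate 1 was the lowest of its group, as it was for GCLM. Its log2 fold change was 0.73 ± 0.09 (SE), or 1.66-fold (95% interval 1.46 to 1.89, edgeR quasi-likelihood adjusted p = 9.0e-08). GCLC overlaps AL033397.2 on the opposite strand and AL033397.1 on its own, and these had at most 7 reads and 0 reads in any library. Of the 8646 exon bases of GCLC, 7 are shared with AL033397.2 and 529 with AL033397.1. How reads in shared bases were assigned was not given in the sources used here.

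The ratio between the subunits therefore differed between the groups. Per kilobase of the deposited gene length, GCLM stood at 1.55, 1.5 and 1.47 times GCLC in exposed libraries and at 0.424, 0.487 and 0.465 times GCLC in control libraries. GCLM exceeded GCLC in every exposed library and was below it in every control library. The ratio averaged 1.51 ± 0.0403 in exposed and 0.459 ± 0.0322 in control libraries (SD, n = 3 each), a difference of 1.72 on the log2 scale. The exact permutation test over libraries gave a two-sided p of 0.1, the smallest that 3 against 3 allows. As a ratio within a library it does not depend on library scaling. Its level depends on gene length, which here counts the exon bases of all GENCODE 29 transcripts, 5420 for GCLM and 8646 for GCLC, while the difference between groups does not. In plain reads the ratio was 0.945 ± 0.0253 in exposed and 0.288 ± 0.0202 in control libraries (SD, n = 3 each), below 1 in both.

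GSS, which completes the synthesis (chr20:34928433-34956027, minus strand), did not pass the test. It had 168, 155 and 161 CPM in exposed and 156, 173 and 159.9 CPM in control libraries, and the groups overlapped, with the lowest value in an exposed and the highest in a control library. GSS had a log2 fold change of -0.01 ± 0.07 (SE, edgeR quasi-likelihood adjusted p = 0.9), with a 95% interval of 0.893-fold to 1.1-fold. GSS was among the better counted members, at 4786 to 5810 reads in exposed and 5817 to 6006 reads in control libraries. A fold as large as that of either ligase subunit lies outside the interval of GSS.

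GSR, which regenerates reduced glutathione (chr8:30678061-30727999, minus strand), had 111, 115 and 103 CPM in exposed and 77.9, 82.5 and 83.9 CPM in control libraries. The lowest exposed library was above the highest control library. This was a log2 fold change of 0.43 ± 0.08 (SE), or 1.35-fold (95% interval 1.21 to 1.5, edgeR quasi-likelihood adjusted p = 2.6e-05).

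**Figure D2:**
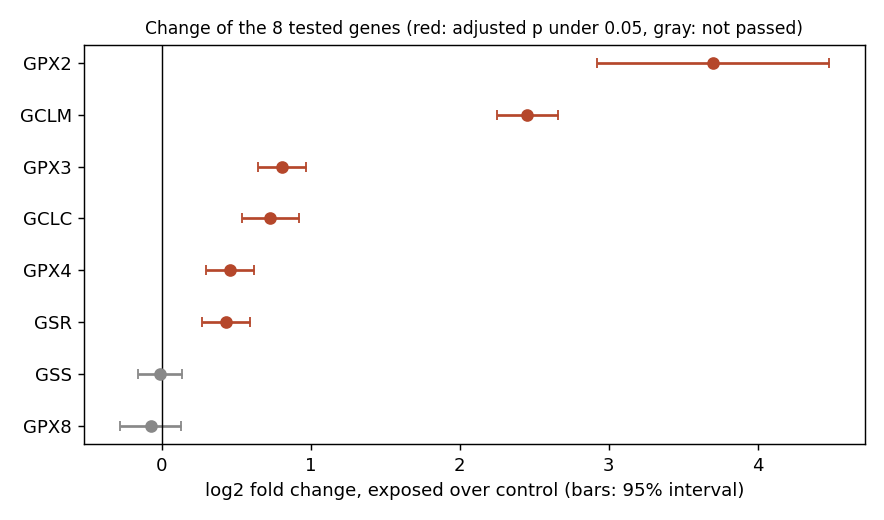
Log2 fold change, exposed over control, of the 8 tested genes (horizontal axis), with 95% intervals; red marks genes past an adjusted p of 0.05 and gray those that did not pass. GPX2 at 3.70 and GCLM at 2.45 stand apart from GCLC, GPX3, GPX4 and GSR at 0.43 to 0.81, and the intervals of GSS and GPX8 span 0.

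Among the selenium-dependent peroxidases, GPX2, the form known from the gastrointestinal epithelium (chr14:64939152-64942905, minus strand), had the largest fold and a low level. It had 93, 71 and 96 reads in exposed libraries, or 2.74, 2.29 and 2.66 CPM. In control libraries it had 2, 10 and 9 reads, or 0.0536, 0.288 and 0.247 CPM. Control replicate 1, at 2 reads, was under the 3 reads taken as the limit of detection in a library, and the other control libraries were above it. Its log2 fold change was 3.70 ± 0.38 (SE), or 13.0-fold (95% interval 7.55 to 22.4, edgeR quasi-likelihood adjusted p = 2.0e-09), rank 11 of 17337. Of the 8 tested members GPX2 had the widest interval and the fewest reads. GPX2 reached the minimum of the low-count filter in 3 exposed libraries and 1 control library, and the filter asks for 3, so it was tested by way of the group in which it was high.

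The whole of GPX2 lies within CHURC1, a gene on the opposite strand, and the strand setting of the counts was not given in the sources used here. The annotated exons of GPX2 and CHURC1 share 0 bases. The gene CHURC1-FNTB, also on the opposite strand, spans GPX2 too and had 0 reads in every library. Its exons were not compared with those of GPX2. CHURC1 had 2012, 1930 and 2261 reads in exposed and 3102, 2242 and 2760 reads in control libraries, a log2 fold change of -0.28 (edgeR quasi-likelihood adjusted p = 0.0088), opposite in direction to GPX2.

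GPX3, the secreted peroxidase of blood plasma (chr5:151020438-151028993, plus strand), was well expressed in these cells. It had 153, 141 and 142 CPM in exposed and 77.8, 91.2 and 78.4 CPM in control libraries. The groups did not overlap, and control replicate 2 was the highest of its group. GPX3 had a log2 fold change of 0.81 ± 0.08 (SE), or 1.76-fold (95% interval 1.57 to 1.96, edgeR quasi-likelihood adjusted p = 4.4e-10).

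GPX4 (chr19:1103926-1106791, plus strand) reduces lipid hydroperoxides within membranes and is known as the main guard against ferroptosis, an iron-dependent cell death. By these counts it was the most abundant member. It had 394, 363 and 362 CPM in exposed and 251, 301 and 263 CPM in control libraries. All exposed libraries were above control replicate 2, the highest control library, which was also the highest control library for GPX3. The log2 fold change was 0.46 ± 0.08 (SE), or 1.37-fold (95% interval 1.23 to 1.53, edgeR quasi-likelihood adjusted p = 1.6e-05). Counted in CPM rather than folds, GPX4 gained most, with means of 373 ± 18.1 in exposed and 271 ± 26 CPM in control libraries (SD, n = 3 each).

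GPX1, the peroxidase of the cytosol that is abundant in many tissues (chr3:49357171-49358600, minus strand), had few reads. It had 6, 6 and 4 reads in exposed and 5, 5 and 0 reads in control libraries. These counts overlap and lie near the 3 reads taken as the limit of detection, so a difference was not detectable in these counts. GPX1 did not pass the low-count filter. Without the filter its log2 fold change was 0.77 ± 1.06 (SE, edgeR quasi-likelihood adjusted p = 0.64). The table gives this row the type polymorphic pseudogene, shared by 41 rows, of which 27 had no read in any library and 2 averaged over 100 reads. Whether rows of this type were counted like other genes was not given in the sources used here, so the low count need not be a low level of the transcript. The processed pseudogenes GPX1P1 and GPX1P2 had 0 reads in all 6 libraries.

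The cysteine peroxidases GPX7 and GPX8 reside in the endoplasmic reticulum (ER), where they use peroxide in the folding of proteins. GPX7 (chr1:52602372-52609051, plus strand) had 0 reads in all 6 libraries, which allows up to 0.0832 to 0.0969 CPM in an exposed and 0.0804 to 0.0864 CPM in a control library at 3 reads. GPX8 (chr5:55160118-55167071, plus strand) had 21.8, 23.7 and 27.0 CPM in exposed and 24.8, 25.7 and 25.9 CPM in control libraries. The exposed libraries spread more widely and enclosed the control values. Its log2 fold change was -0.07 ± 0.10 (SE, edgeR quasi-likelihood adjusted p = 0.58), with a 95% interval of 0.826-fold to 1.09-fold. GPX8 lies within CDC20B, on the opposite strand, with which its exons share 0 bases. CDC20B had 107, 80 and 142 reads in exposed and 222, 194 and 142 reads in control libraries, a log2 fold change of -0.67 (edgeR quasi-likelihood adjusted p = 0.0058).

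Levels can be compared between genes only per length. In exposed libraries the order by mean CPM per kilobase was GPX4 at 185, GPX3 at 45.8, GSR at 29.2, GSS at 26.1, GCLM at 8.92, GPX8 at 6.25, GCLC at 5.92, GPX2 at 1.71, GPX1 at 0.112 and GPX7 at 0. Only GPX8 and GCLC overlapped among neighbours in that order. In control libraries the order was GPX4 at 134, GSS at 26.4, GPX3 at 26.1, GSR at 21.7, GPX8 at 6.58, GCLC at 3.56, GCLM at 1.63, GPX2 at 0.131, GPX1 at 0.0648 and GPX7 at 0. There, GSS overlapped GPX3, and GPX2, GPX1 and GPX7 overlapped their neighbours. GCLM stood at place 5 in exposed and place 7 in control libraries, and GSS at place 4 in exposed and place 2 in control libraries. The place of GPX1 rests on its few reads, whose counting is not known.

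**Figure D3:**
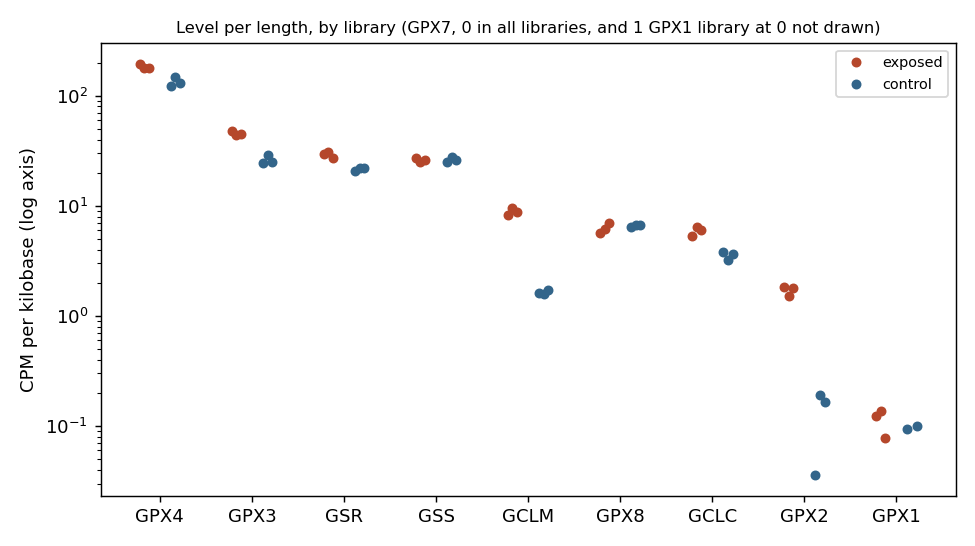
Level per length of each gene (CPM per kilobase, log axis) by library, genes ordered by their mean in exposed libraries, exposed points left of control points. GPX4 leads in both groups, GCLM lies above GPX8 and GCLC in exposed and below them in control libraries, and GPX7, at 0 throughout, and the control library with 0 GPX1 reads are not drawn.

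The make-up of the peroxidases shifted a little under a summed level of 239 ± 10.6 CPM per kilobase in exposed and 167 ± 15.4 in control libraries (SD, n = 3 each). GPX4 held 77.7%, 77.5% and 77.0% of the sum in exposed and 80.0%, 80.6% and 80.4% in control libraries. GPX3 held 19.2%, 19.2% and 19.3% in exposed and 15.8%, 15.6% and 15.3% in control libraries. These 2 genes made up nearly all of the sum as counted in every library. The sum takes GPX1 at its few reads, and whether its row was counted like other genes is not known. Sum and shares therefore describe the reads as counted.

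GPX8 held 2.25%, 2.64% and 2.99% in exposed and 4.12%, 3.60% and 4.14% in control libraries. GPX2, despite its fold, held 0.728%, 0.660% and 0.763% in exposed and 0.023%, 0.104% and 0.102% in control libraries. For GPX2, GPX3, GPX4 and GPX8 the libraries of the groups did not overlap, and the exact permutation test gave a two-sided p of 0.1 for each, the smallest that 3 against 3 allows. For GPX1, at 0.047% ± 0.0127 in exposed and 0.0383% ± 0.0333 in control libraries (SD, n = 3 each), the exact p was 0.9, and GPX7 held 0. Shares sum to the whole, so these tests are not independent, and with 0.1 as the smallest p none could pass before or after adjustment.

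**Figure D4:**
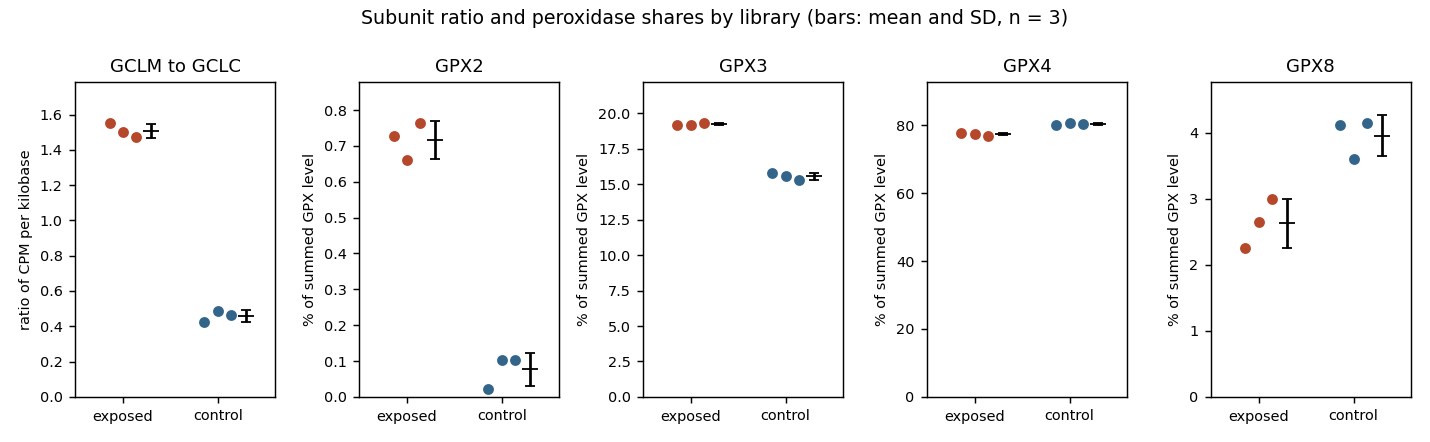
Ratio of GCLM to GCLC per kilobase (left) and percent of the summed GPX level held by GPX2, GPX3, GPX4 and GPX8, by library, with the mean and SD (n = 3). The ratio averages 1.51 in exposed and 0.459 in control libraries. GPX2 and GPX3 hold larger shares, and GPX4 and GPX8 smaller shares, in exposed libraries. The sum takes GPX1 at its few reads, whose counting is not known.

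The start regions of these genes were read for the letters of 3 regulatory elements. RefSeq windows of GRCh38.p14 ran from 250 bases before to 50 bases after a RefSeq start. They were at hand for 8 of the 10 genes and were searched on both strands. The core of the antioxidant response element, TGACNNNGC, was found in the windows of GCLM and GPX2 and not in those of GCLC, GPX1, GPX3, GPX4, GPX7 and GPX8. Of all 35116 windows, 13.3% hold it. The folds were known when the windows were searched, GPX1 and GPX7 have no tested fold, GSR and GSS have no window here, and GPX2 was tested by way of its exposed libraries, so nothing is read from which members hold the core. The GCLM window (chr1:93909381-93909680, minus strand) and the GPX2 window (chr14:64942696-64942995, minus strand) are shown with the match in capitals, beside that of GCLC (chr6:53545052-53545351, minus strand), a gene that rose and whose window holds no match.
GCLM: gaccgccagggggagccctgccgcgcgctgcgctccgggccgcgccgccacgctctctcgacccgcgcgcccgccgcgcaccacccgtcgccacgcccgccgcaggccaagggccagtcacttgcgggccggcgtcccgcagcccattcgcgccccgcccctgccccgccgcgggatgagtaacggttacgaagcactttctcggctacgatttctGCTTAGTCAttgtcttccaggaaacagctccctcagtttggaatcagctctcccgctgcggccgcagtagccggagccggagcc
GPX2: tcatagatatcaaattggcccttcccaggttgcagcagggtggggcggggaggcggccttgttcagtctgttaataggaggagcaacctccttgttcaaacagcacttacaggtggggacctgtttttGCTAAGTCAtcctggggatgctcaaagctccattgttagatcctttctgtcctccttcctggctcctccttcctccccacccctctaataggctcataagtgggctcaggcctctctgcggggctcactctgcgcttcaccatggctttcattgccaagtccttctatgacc
GCLC: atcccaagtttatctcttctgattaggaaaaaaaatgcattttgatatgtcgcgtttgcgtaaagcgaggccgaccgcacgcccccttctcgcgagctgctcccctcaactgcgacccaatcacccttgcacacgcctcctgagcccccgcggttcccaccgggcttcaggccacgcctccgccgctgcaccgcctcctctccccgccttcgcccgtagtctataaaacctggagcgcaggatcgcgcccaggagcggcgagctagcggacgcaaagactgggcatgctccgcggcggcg
Both matches read on the strand opposite to the one printed, as TGACTAAGC in GCLM and TGACTTAGC in GPX2. They lie at -34 to -26 of GCLM and -122 to -114 of GPX2, counting the RefSeq start as 1. These starts are not the first bases of the counted genes, whose coordinates are given above. On those coordinates the GPX2 match and the whole GCLC window lie inside the gene. Of 2166 tested genes with this core in a window, 592 (27.3%) were higher in exposed cells, against 2753 (24.5%) of 11240 tested genes with a window. No match in the GCLC window says only that these letters are not in these 300 bases.

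The core of the aryl hydrocarbon receptor element, GCGTG, is found in 36.5% of all windows. It was present in those of GCLC, with 3 matches, GCLM, with 2, GPX1 and GPX4, and not in those of GPX2, GPX3, GPX7 and GPX8. The composite site of the stress factor ATF4, searched as TGATGNAA and found in 3.62% of all windows, was present only in the window of GPX8, which did not pass the test. No match of an element overlapped that of another. A match of letters is a description and not a bound site.

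Counts of the lists that follow are read against the 21.8% of all tested genes that were higher and the 22.1% that were lower. Of 10 genes for cystine uptake, transsulfuration and glutamate supply, 9 were tested, 2 rose and 3 fell, shares not far from those of all tested genes. SLC7A11 and SLC3A2, which together import cystine, had log2 fold changes of 2.19 ± 0.10 and 1.46 ± 0.09 (SE). MAT2A, which makes S-adenosylmethionine, and the glutamate and cysteine transporter SLC1A1 fell, at -1.18 ± 0.08 and -1.20 ± 0.18. Of 13 genes of the gamma-glutamyl cycle and glutathione breakdown, 8 were tested, 2 rose and 4 fell. CHAC1, which degrades reduced glutathione, had 14.1 ± 3.10 CPM in exposed and 4.86 ± 0.714 CPM in control libraries (SD, n = 3 each), while its relative CHAC2 had 1.48 ± 0.462 CPM in exposed and 3.80 ± 0.419 CPM in control libraries. GGT6 and GGT7, of the gamma-glutamyltransferase family, were at -0.48 ± 0.08 and 0.28 ± 0.09 (log2 ± SE). The call of GGT7 ended, leaving 1 gene higher, without exposed replicate 3 (edgeR quasi-likelihood adjusted p = 0.059) or control replicate 3 (0.093).

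Selenium-dependent peroxidases need the apparatus that inserts selenocysteine, and of its 10 tested genes, including those of selenium supply, 5 rose and 1 fell. Only 4 were higher under limma-voom or with the replicate block. The same held without exposed replicate 1, exposed replicate 2, control replicate 2 or control replicate 3. SEPHS2, which makes the selenium donor, had 396 ± 26.2 CPM in exposed and 174 ± 9.36 CPM in control libraries (SD, n = 3 each). LRP8, a receptor through which cells take up selenoprotein P, was at 1.21 ± 0.10, SECISBP2, which binds the selenocysteine insertion element, at 0.43 ± 0.09, and the elongation factor EEFSEC at -0.32 ± 0.10 (log2 ± SE). Of 17 other selenoproteins tested, 3 rose, 3 fell and 11 did not pass, close to the shares of all tested genes, and their median log2 fold change was -0.02, as over all tested genes. TXNRD1, thioredoxin reductase of the cytosol, was at 1.38 ± 0.08, SELENOK at 0.67 ± 0.09, MSRB1 at -0.33 ± 0.08 and SELENOT at -0.23 ± 0.08 (log2 ± SE). Without control replicate 2, 5 of these selenoproteins were higher. Only 2 were higher with no low-count filter, with the replicate block, or on leaving out any other library. Those called lower ran from 2 to 4 over the alternatives. The call of SELENOT ended without exposed replicate 1 (edgeR quasi-likelihood adjusted p = 0.13) or control replicate 3 (0.076).

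On the list of NRF2 and its regulators, 7 of 7 genes rose: NFE2L2, NFE2L1, KEAP1, BACH1, MAFF, MAFG and MAFK. This list, like the others, was chosen with earlier results of these data known, so the count is a description only. NFE2L1 encodes a relative of NRF2 and not NRF2 itself. NFE2L2, which encodes NRF2, had 45.9 ± 3.38 CPM in exposed and 27.3 ± 2.82 CPM in control libraries, and KEAP1, which targets NRF2 for degradation, had 140.1 ± 5.67 CPM in exposed and 80.1 ± 5.74 CPM in control libraries (SD, n = 3 each). The small MAF proteins MAFF and MAFG, binding partners of NRF2, rose too, with MAFG at a log2 fold change of 1.75 ± 0.08 (SE) and MAFF at 27.3 ± 5.18 CPM in exposed and 6.8 ± 1 CPM in control libraries (SD, n = 3 each). GPX5 and GPX6, the peroxidases outside the 10 genes, had at most 1 read in any library.

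**Figure D5:**
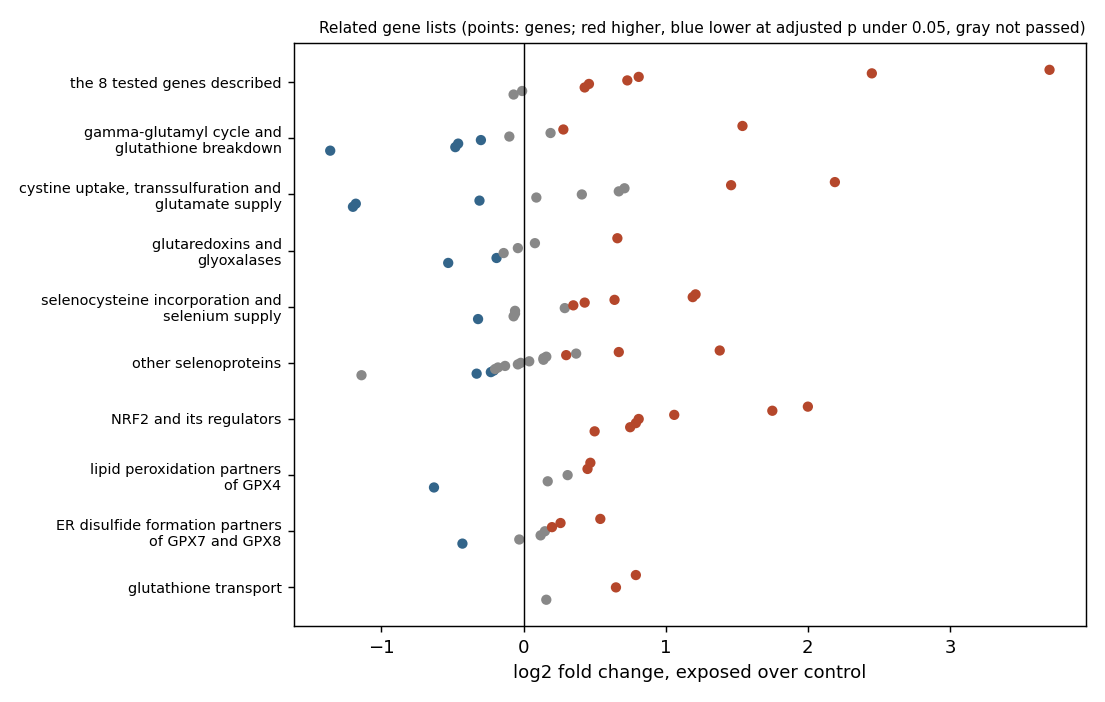
Log2 fold change, exposed over control (horizontal axis), of the 8 tested glutathione genes and of the tested genes of 9 related lists; each point is a gene, red higher and blue lower at an adjusted p under 0.05, gray not passed. The 7 genes of the list of NRF2 and its regulators, NFE2L1 among them, all lie right of 0 in red. Each of the other lists holds at least 1 gene that did not pass. The lists were chosen with earlier results of these data known.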

How the data were processed

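The authors deposited raw read counts per gene for 6 libraries, made against GRCh38 per the submitters' processing notes. RNA was extracted with TRIzol, made into NEBNext Ultra libraries and sequenced on a NovaSeq instrument, per the labels' protocols. The aligner, counting tool, annotation release and strand setting were not given in the sources used here. Coordinates and gene lengths of the 10 genes equalled those of GENCODE 29 in all 10 cases, with length as the exon bases of all transcripts. Sample titles gave the group and replicate number of each library.

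The test was edgeR's quasi-likelihood test (edgeR 4.0.16, R 4.3.3, robust fit) of exposed against control libraries, on 17337 genes kept by filterByExpr (minimum count 10, total 15) and with TMM scaling, with Benjamini-Hochberg adjustment over all tested genes. The SE is the size of the log2 fold change divided by the square root of F. The fit was first tested on simulated counts. The biological coefficient of variation was 9.61%. Chi-square per degree of freedom between libraries of 1 group was 5.59 to 11.1, above what counting error alone gives. This value alone cannot tell libraries of separate cultures from libraries made again from the same culture or from a library sequenced again. Floors of 3 reads cover counting error only. Ratios and shares were compared with exact permutation tests. Alternatives tried were DESeq2-type size factors, no low-count filter, a stricter one (1 CPM in 3 libraries), DESeq2 1.42.0, limma-voom (limma 3.58.1), a replicate block, removal of mitochondrial genes, leaving out each library, and ratios without gene length.

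The 10 genes and the related lists were chosen with earlier results of these data known. Named from each list are up to 2 higher and 2 lower genes with the smallest adjusted p, plus NFE2L2, KEAP1, SEPHS2 and SECISBP2. Promoter and coding sequences are from RefSeq (GRCh38.p14) and GENCODE 29. Windows of GSS and GSR were not used here.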

Additional observations from a re-analysis of the deposited data

How the results depend on the processing

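Each of the 8 tested members kept its side of the threshold under all 13 alternatives. GPX2 passed the default and the stricter low-count filter by way of its exposed libraries, so its stability is a description only. The log2 fold change ran from 3.25 to 4.07 for GPX2, 2.40 to 2.51 for GCLM, 0.67 to 0.81 for GCLC, 0.78 to 0.89 for GPX3, 0.41 to 0.54 for GPX4, 0.40 to 0.49 for GSR, -0.04 to 0.03 for GSS and -0.14 to 0.00 for GPX8, each of these extremes reached on leaving out a library. The genes called in all ran from 6262 (without control replicate 3) to 7681 (limma-voom), against 7610.

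Samples that share a replicate number did not deviate together: the correlations of their deviations from the group means were -0.07, -0.07 and 0.01. With the replicate block 3359 genes were higher and 3420 lower, 6 members were higher and 0 lower, and GPX2 stood at 3.73. Without gene length the difference in share of the summed peroxidase level, exposed minus control, was 0.42 percentage points for GPX2 (0.641 with length), 4.89 for GPX3 (3.62) and -2.28 for GPX8 (-1.32); the lengths alone set these changes. Depth limits GPX7 and the control level of GPX2, and few reads limit GPX1, whose counting is not known.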

Other observations

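The counts of the short lists that follow stand beside the 43.9% of all tested genes that changed, and none is read as a result about its list. Of 3 genes of glutathione transport, 2 rose: ABCC1, a pump that exports glutathione and its conjugates, was at 0.79 ± 0.07 and SLC25A40, of the mitochondrial glutathione carriers, at 0.65 ± 0.13 (log2 fold change ± SE). Of 6 glutaredoxins and glyoxalases, HAGH, which releases glutathione in methylglyoxal detoxification, rose, at 0.66 ± 0.08, and GLRX2 fell, at -0.53 ± 0.11. GLRX5 also fell, at -0.19 ± 0.08 (edgeR quasi-likelihood adjusted p = 0.04), a call that ended under 8 of 13 alternatives, with adjusted p from 0.062 to 0.19 there. These 8 included leaving out exposed replicate 2 (0.19), exposed replicate 3 (0.19), control replicate 2 (0.13) or control replicate 3 (0.075).

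Of 5 genes that act on lipid peroxidation beside GPX4, 2 rose and 1 fell. ACSL4, which loads polyunsaturated fatty acids for membrane lipids, was at 0.47 ± 0.12, LPCAT3 at 0.45 ± 0.15 and the ubiquinone-reducing enzyme DHODH at -0.63 ± 0.11 (log2 fold change ± SE). The call of LPCAT3 ended, leaving 1 gene higher, without exposed replicate 1 (edgeR quasi-likelihood adjusted p = 0.094) or control replicate 3 (0.086). Of 7 genes of disulfide formation in the ER, 3 rose and 1 fell, with the isomerases PDIA4 at 0.54 ± 0.07 and P4HB at 0.26 ± 0.08 and the peroxiredoxin PRDX4 at -0.43 ± 0.08. Without exposed replicate 1, and without control replicate 3, 1 gene of this list was higher, and without exposed replicate 3 there were 2 lower. The call of P4HB ended without exposed replicate 1 (edgeR quasi-likelihood adjusted p = 0.051) or control replicate 3 (0.091).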
